A study of Mus musculus with 4 samples.

Results

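The YAP and TEAD genes and a group of their target genes were examined in bulk RNA sequencing of lungs that carried metastases of 4T1, a mouse triple-negative breast cancer (TNBC) line. The group holds 10 of the 56748 genes counted, matched by symbol: the coactivators Yap1 and Wwtr1, the transcription factors Tead1 and Tead2, and the target genes Ccn1, Ccn2, Ankrd1, Amotl2, Ajuba and Lats2. All 10 passed the expression filter, as did 15320 genes in all. The 2 saline samples, labelled as a PBS control, were compared with the 2 ADC/cmLumiOpto samples. All mice were female BALB/cJ, were 7 weeks old when luciferase-expressing 4T1 cells were injected into the tail vein, and were treated for 3 weeks. The treated mice received the ADC, an anti-CD276 antibody linked to the microtubule inhibitor mertansine (DM1), at 16 mg/kg as labelled. They also received cmLumiOpto, a gene therapy whose light-gated channel depolarizes mitochondria of cancer cells, carried by exosome-enclosed AAV bearing the same antibody and switched on by the luminescent substrate ViviRen. The label of the treatment adds the abbreviation Olap, which is not explained, and the methods give a lower ADC dose of 8 mg/kg. The labels describe tumor cells, the methods dissociated lung tissue. Markers of alveolar type 2 cells summed to between 419 and 5551 CPM (counts relative to the scaled size of the library) in the 4 samples, so RNA of lung cells was present in each.

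YAP and its paralog TAZ, the protein of Wwtr1, are coactivators without a DNA-binding domain of their own. In the nucleus they bind TEAD factors on the motif GGAATG and switch on genes of growth, adhesion and matrix. The Hippo kinases MST (Stk3, Stk4) and LATS phosphorylate YAP and TAZ, which keeps them in the cytoplasm, so that the pathway acts largely on protein location and stability rather than on RNA. In lung, YAP and TAZ are known for roles in alveolar type 1 cells, endothelium and fibroblasts, and in breast cancer for roles in invasion and metastasis. The counts measure RNA only.

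The DNA before the start of 4 target genes held the motif by which TEAD factors bind. The 250 bases before the annotated start were taken from RefSeq on GRCm38.p6 for the 8 genes listed there, which leaves out Tead1 and Ccn2. The motif GGAATG or its reverse complement CATTCC was in the windows of 6 of these 8 genes, against 12.6% of 32841 windows of the same length in the whole promoter table. The 12.6% counts windows and not genes, and the 8 genes had 10 windows. The target genes were listed as known targets of YAP and TEAD, so this comparison is a description and not a test. The 4 target genes with a match are printed 5′ to 3′ on the strand of the gene, with the matches in capitals. The windows are chr3:145649986-145650235 on the minus strand for Ccn1, chr19:36119845-36120094 on the minus strand for Ankrd1, chr9:102717554-102717803 on the plus strand for Amotl2 and chr14:54577662-54577911 on the minus strand for Ajuba.
Ccn1: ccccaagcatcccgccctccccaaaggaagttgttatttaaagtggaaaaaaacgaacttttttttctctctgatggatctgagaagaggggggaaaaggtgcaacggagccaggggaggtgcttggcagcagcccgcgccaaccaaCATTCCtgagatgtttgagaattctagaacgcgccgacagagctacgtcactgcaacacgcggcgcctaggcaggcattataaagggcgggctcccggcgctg
Ankrd1: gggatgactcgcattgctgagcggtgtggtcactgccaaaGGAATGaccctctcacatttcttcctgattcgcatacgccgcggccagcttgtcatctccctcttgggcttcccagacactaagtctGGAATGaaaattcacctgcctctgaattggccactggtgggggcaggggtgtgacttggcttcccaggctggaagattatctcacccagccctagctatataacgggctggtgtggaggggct
Amotl2: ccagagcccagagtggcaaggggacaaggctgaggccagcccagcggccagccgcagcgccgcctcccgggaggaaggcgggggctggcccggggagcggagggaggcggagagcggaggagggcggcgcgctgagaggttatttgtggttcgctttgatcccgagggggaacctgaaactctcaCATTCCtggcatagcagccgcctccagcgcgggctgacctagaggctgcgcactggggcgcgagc
Ajuba: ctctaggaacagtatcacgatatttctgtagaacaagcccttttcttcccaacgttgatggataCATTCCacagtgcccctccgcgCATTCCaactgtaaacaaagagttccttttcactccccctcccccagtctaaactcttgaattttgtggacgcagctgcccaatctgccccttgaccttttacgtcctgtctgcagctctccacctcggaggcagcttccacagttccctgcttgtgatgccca
Ankrd1 and Ajuba each held 2 matches, and Ccn1 and Amotl2 each held 1. In Ankrd1 the first bases of the matches lay 210 and 123 bases before the start. In Ajuba they lay 186 and 164 bases before it, and in Ccn1 and Amotl2 103 and 65 bases. The windows of Yap1 and Wwtr1 held 1 match each, while those of Tead2 and Lats2 held none of these letters. The AP-1 motif TGANTCA, in 6.75% of all windows, and the CArG box of serum response factor, in 1.47%, were in no window of these genes. A match is a stretch of letters and was not tested for binding.

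**Figure D1:**
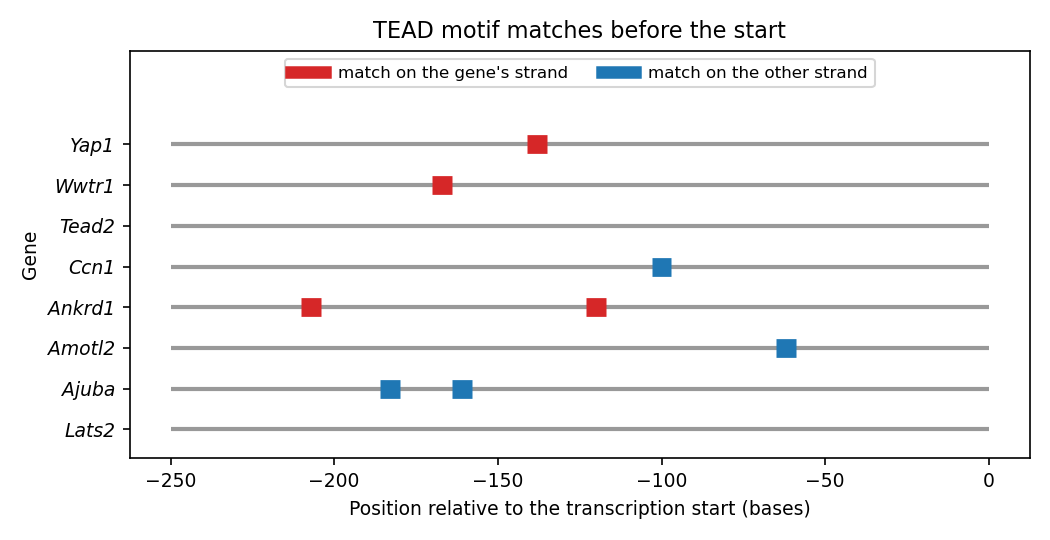
Matches of the TEAD motif in the 250 bases before the transcription start of the 8 genes with a listed promoter. The horizontal axis is the position in bases, red marks lie on the strand of the gene and blue marks on the other strand (for Wwtr1 and Lats2, which have more than 1 listed start, a single window is drawn). Ankrd1 and Ajuba hold 2 matches, Tead2 and Lats2 none.

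The samples held between 15263375 and 19675436 counts, and each member was covered by at least 361 counts in every sample. Pearson's r of log2 values across genes, which are not independent replicates, was 0.973 for the saline pair and 0.970 for the ADC/cmLumiOpto pair. The smallest two-sided p of an exact permutation test of 2 samples against 2 is 0.333, and edgeR's quasi-likelihood fit to all genes was therefore used. In that fit 0 of the 15320 genes (0%) had a Benjamini-Hochberg adjusted p under 0.05, the members included, and 3641 genes (23.8%) had an unadjusted p under 0.05. The exact test of edgeR called 1170 genes (7.64%) and DESeq2 called 1332 of the 13834 genes it gave an adjusted p (9.63%). Differences below are therefore given as sizes with their errors, and the calls of the exact test and DESeq2 are named where they were made.

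Transcripts of the YAP and TEAD genes were lower after ADC/cmLumiOpto, with Tead1, Wwtr1 and Tead2 at 48.7%, 57.1% and 59.2% of saline. The 6 target genes had a median log2 fold change of -0.54, and the groups were apart for 2 of them and overlapped for 4. The log2 fold change was below 0 for 9 of the 10 genes, against 48.0% of all tested genes. Its median was -0.58, beside 0.028 over all tested genes. In 6 genes (Yap1, Wwtr1, Tead1, Tead2, Ankrd1 and Ajuba) the higher treated sample was below the lower saline sample, which was the case for 28.8% of all tested genes. In 0 of the 10 genes were the groups apart in the other direction, as they were for 28.1% of all tested genes. These 6 were also the genes with an unadjusted p under 0.05 in edgeR's quasi-likelihood test, where 12.3% of all tested genes were lower at that p. Adjusted p values of the 10 genes ran from 0.101 to 0.964 in edgeR's quasi-likelihood test. The exact test and DESeq2 each called the same 4 genes, all lower: Wwtr1, Tead1, Tead2 and Ankrd1. Genes called lower were 3.68% of all genes tested in the exact test and 5.47% in DESeq2.

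**Figure D2:**
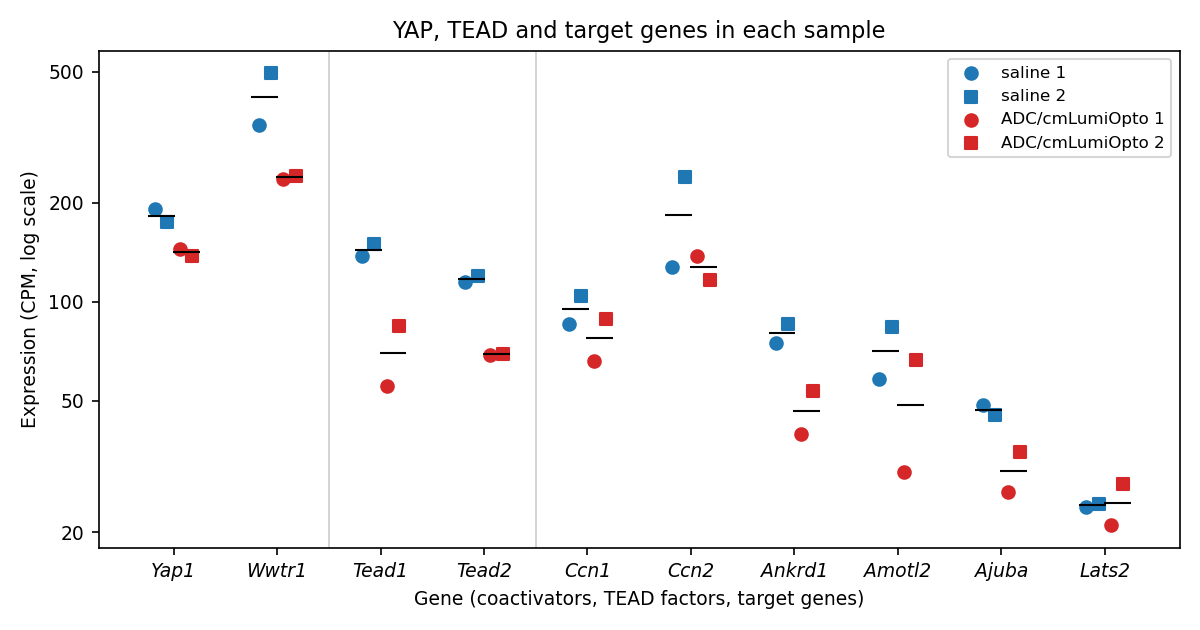
Expression of the 10 genes in each sample, in CPM on a log axis, with the gene on the horizontal axis. Points are single samples (blue saline, red ADC/cmLumiOpto; circles replicate 1, squares replicate 2) and black lines are means of the 2 samples. The red points lie below both blue points for Yap1, Wwtr1, Tead1, Tead2, Ankrd1 and Ajuba, and the groups overlap for the other 4 genes.

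Wwtr1 (ENSMUSG00000027803, chr3:57363070-57483331 in the file's mm39 positions), the gene of TAZ, was at 344 and 494 CPM in the saline samples and at 237 and 242 CPM in the ADC/cmLumiOpto samples. The treated samples were nearly equal and both lay below the saline samples, which differed from each other by 1.44-fold. Its log2 fold change was -0.81 (standard error 0.21, adjusted p = 0.112 in edgeR's quasi-likelihood test), or 57.1% of the saline level. It was -0.52 without saline replicate 2, the sample with the most Wwtr1. The exact test of edgeR (adjusted p = 0.0361) and DESeq2 (adjusted p = 0.0150) both called it lower.

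Yap1 (ENSMUSG00000053110, chr9:7932000-8004597), the gene of YAP, was at 191 and 175 CPM in the saline samples and at 144 and 138 CPM after treatment. Replicates were close and the groups did not overlap, but the difference was the smallest of the 6 genes with separate groups. The log2 fold change was -0.37 (standard error 0.15, adjusted p = 0.196 in edgeR's quasi-likelihood test), with a 95% interval from -0.73 to -0.016. Neither the exact test of edgeR (adjusted p = 0.32) nor DESeq2 (adjusted p = 0.212) called Yap1. Its unadjusted p was 0.0979 in the exact test and 0.0514 in DESeq2. Longer genes were lower after treatment throughout the data (Spearman's rho between listed length and log2 fold change -0.34 across genes, a description). The listed length of Yap1 is 9257 bases, and with the trend on length removed its log2 fold change was -0.13.

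Per kilobase of gene length, the scale on which levels of different genes can be set side by side, Wwtr1 was the more abundant coactivator in every sample. It made up between 76.1% and 84.6% of the sum of both genes. Their summed level was 92.6 and 122 CPM per kb in the saline samples and 65.1 and 65.5 CPM per kb in the treated samples. The share of Yap1 was 22.3% and 15.4% in saline and 23.9% and 22.8% after treatment. Both treated shares were above both saline shares, by less than the saline samples differed from each other.

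TEAD factors carry the DNA-binding domain through which YAP and TAZ reach their genes. Tead1 (ENSMUSG00000055320, chr7:112278525-112506014) was at 138 and 149 CPM in the saline samples and at 55.6 and 84.4 CPM after treatment. This was the largest difference among the 10 genes, although the treated samples differed by 1.52-fold. In edgeR the log2 fold change was -1.04 (standard error 0.22, adjusted p = 0.103 in edgeR's quasi-likelihood test), or 48.7% of saline. Tead1 has the longest listed length of the group, 13570 bases, and with the length trend removed the log2 fold change was -0.73. In that fit Ankrd1 (-0.89) and Wwtr1 (-0.76) differed more than Tead1. The exact test of edgeR (adjusted p = 0.00886) and DESeq2 (adjusted p = 0.00273) called Tead1 lower.

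Tead2 (ENSMUSG00000030796, chr7:44865177-44883068) was at 115 and 120 CPM in the saline samples and at 69.1 and 69.4 CPM in the treated samples. Its saline samples differed by 1.04-fold and its treated samples by 1.00-fold, and the groups were apart. The log2 fold change was -0.76 (standard error 0.15, adjusted p = 0.101 in edgeR's quasi-likelihood test), and leaving out any single sample kept it within -0.80 and -0.72. DESeq2 gave an adjusted p of 0.00395 and the exact test of edgeR 0.0192. Tead2 overlaps Cd37, a leukocyte gene on the other strand, by 13 exonic bases of 4788. Whether the counting used strand is not given in the sources used here. Other genes that overlap members had at most 50 counts over the 4 samples.

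The other two TEAD genes had far fewer reads. Tead3 had 302 and 335 counts in saline and 194 and 325 after treatment, which gave a log2 fold change of -0.62 with a standard error of 0.27 (adjusted p = 0.218 in edgeR's quasi-likelihood test). Tead4 had 219 and 213 counts in saline and 174 and 251 after treatment, and its log2 fold change was -0.34 (standard error 0.25, adjusted p = 0.444 in edgeR's quasi-likelihood test). On the CPM scale the groups did not overlap for either gene. Added per kilobase, the 4 TEAD genes gave 40.7 and 43.3 CPM per kb in saline and 22.9 and 26.5 CPM per kb after treatment. Tead2 held most of this sum in every sample, between 54.8% and 63.0%. The share of Tead1 was 24.997% and 25.4% in saline and 17.9% and 23.5% after treatment, and that of Tead4 was 9.34% and 9.21% in saline and 11.96% and 12.9% after treatment. Both treated samples thus had a smaller share of Tead1 and a larger share of Tead4 than both saline samples, and this difference in shares was not tested. The trend on gene length was not removed from these shares. With it removed, the log2 fold change was -0.73 for Tead1 and -0.70 for Tead2.

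**Figure D3:**
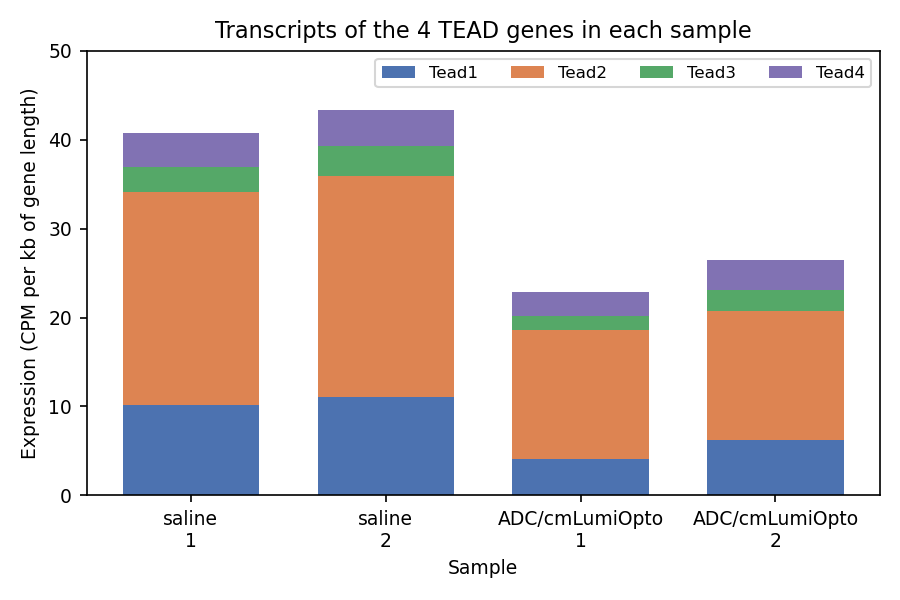
Summed expression of the 4 TEAD genes in each sample, in CPM per kb of gene length, stacked by gene (no error bars, each bar is 1 sample). The treated bars reach 22.9 and 26.5 CPM per kb and the saline bars 40.7 and 43.3, and Tead2 is the largest part of each.

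Ankrd1 and Ajuba were the target genes whose groups were apart. Ankrd1 (ENSMUSG00000024803, chr19:36089361-36097499) encodes an ankyrin-repeat protein of muscle and stressed cells and is a standard YAP readout. It was at 75.2 and 85.7 CPM in the saline samples and at 39.7 and 53.7 CPM in the treated samples. Its log2 fold change was -0.78 (standard error 0.20, adjusted p = 0.112 in edgeR's quasi-likelihood test), or 58.1% of saline, and -0.89 with the length trend removed. It was called lower by the exact test of edgeR (adjusted p = 0.0377) and by DESeq2 (adjusted p = 0.0254). Of 6 markers of cardiac muscle, which also expresses Ankrd1, Myh6, Actc1, Myl7, Nppa and Tnni3 were each under 3 CPM in every sample. Tnnt2 was at 96.2 and 88.9 CPM in saline and at 76.5 and 118 CPM after treatment, and its groups overlapped. Ajuba (ENSMUSG00000022178, chr14:54804929-54815015), a LIM protein that binds and inhibits LATS kinases, was at 48.8 and 45.3 CPM in saline and at 26.5 and 35.0 CPM after treatment. Its log2 fold change was -0.61 (standard error 0.20, adjusted p = 0.148 in edgeR's quasi-likelihood test), and neither DESeq2 (adjusted p = 0.106) nor the exact test of edgeR (adjusted p = 0.110) called it.

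Ccn1 and Ccn2, formerly Cyr61 and Ctgf, encode secreted matricellular proteins and are the most used YAP targets. Ccn2 (ENSMUSG00000019997, chr10:24471340-24474581) was at 127 and 240 CPM in the saline samples and at 138 and 117 CPM in the treated samples. Saline replicate 2 stood above the other 3 samples, which lay close together. The log2 fold change was -0.53 with a standard error of 0.29 (adjusted p = 0.309 in edgeR's quasi-likelihood test), and it became 0.00061 when that sample was left out and -0.93 without saline replicate 1. Ccn1 (ENSMUSG00000028195, chr3:145352731-145355736) was at 85.8 and 104 CPM in saline and at 66.3 and 88.6 CPM after treatment, so that the groups overlapped. Its log2 fold change was -0.29 (standard error 0.20, adjusted p = 0.404 in edgeR's quasi-likelihood test), with a 95% interval from -0.77 to 0.19 that includes both no change and a reduction like that of Tead2. It was -0.099 without ADC/cmLumiOpto replicate 1, -0.15 without saline replicate 2 and -0.52 without ADC/cmLumiOpto replicate 2.

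Amotl2 and Lats2 are induced by YAP and in turn restrain it. Amotl2 (ENSMUSG00000032531, chr9:102593871-102610617), an angiomotin that holds YAP at cell junctions, was at 58.2 and 83.7 CPM in saline and at 30.4 and 66.7 CPM after treatment. It had the widest gap between treated samples of the 10 genes, 2.19-fold. The difference was -0.55 on the log2 scale (standard error 0.37, adjusted p = 0.398 in edgeR's quasi-likelihood test), and it was -0.26 without saline replicate 2, -0.088 without ADC/cmLumiOpto replicate 1 and -1.23 without ADC/cmLumiOpto replicate 2. Lats2 (ENSMUSG00000021959, chr14:57927119-57995845), the kinase that phosphorylates YAP, was at 23.9 and 24.3 CPM in saline and at 21.0 and 27.9 CPM after treatment. The treated samples lay on either side of the saline samples. Its log2 fold change was 0.022 (standard error 0.22, adjusted p = 0.964 in edgeR's quasi-likelihood test), with a 95% interval from -0.51 to 0.55.

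**Figure D4:**
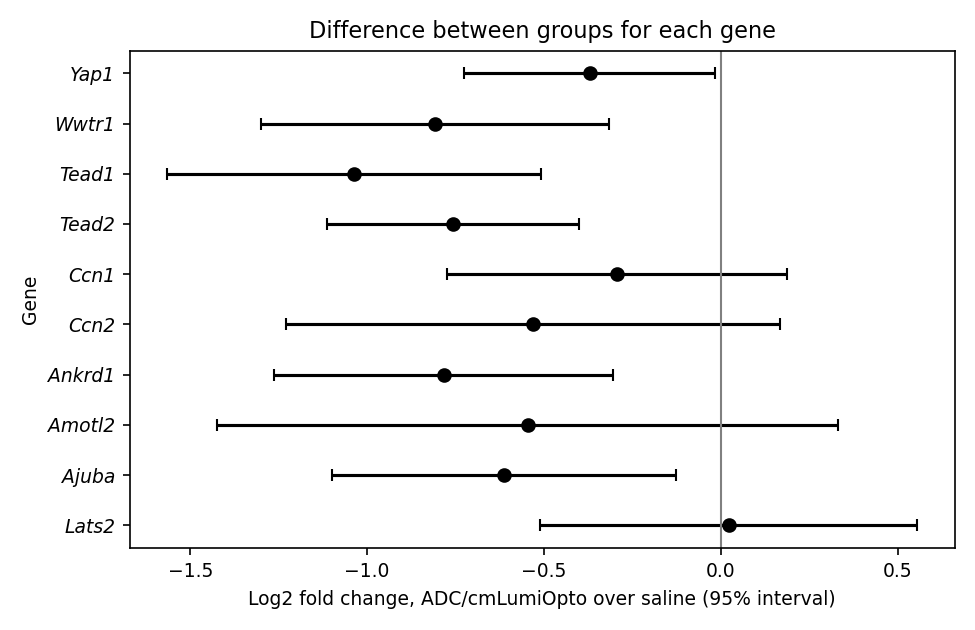
Log2 fold change of ADC/cmLumiOpto over saline for each of the 10 genes (horizontal axis, gene on the vertical axis), with the 95% interval of edgeR's quasi-likelihood fit, not adjusted over genes. The intervals of Yap1, Wwtr1, Tead1, Tead2, Ankrd1 and Ajuba lie below 0, and those of Ccn1, Ccn2, Amotl2 and Lats2 include it.

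Among the 10 genes the coactivators and TEAD factors had a median log2 fold change of -0.78, from -1.04 to -0.37, and all 4 had separate groups. The 6 target genes had a median of -0.54, from -0.78 to 0.022, and 2 had separate groups. Whether the sets differ was not tested. Separate groups with the treated samples lower were found for 28.8% of all tested genes, a share near that of the target genes. ADC/cmLumiOpto replicate 2 was above replicate 1 in 8 of the 10 genes, and by more than 1.3-fold in 6 of them (Tead1, Ccn1, Ankrd1, Amotl2, Ajuba and Lats2). Wwtr1 and Tead2 were 1.02 and 1.00 times as high in replicate 2 as in replicate 1, Yap1 was 0.958 times and Ccn2 0.846 times as high.

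Ranked per kilobase, the mean saline levels ran from Wwtr1 (87.7 ± 22.2 CPM per kb, SD, n = 2) through Ccn2 (64.2 ± 27.9), Ccn1 (47.0 ± 6.43), Ankrd1 (27.9 ± 2.56), Tead2 (24.5 ± 0.717), Yap1 (19.7 ± 1.23), Ajuba (12.9 ± 0.672), Amotl2 (11.3 ± 2.87) and Tead1 (10.6 ± 0.581) to Lats2 (3.46 ± 0.0458). The neighbours Wwtr1 and Ccn2, Ccn2 and Ccn1, Ajuba and Amotl2, and Amotl2 and Tead1 overlapped between samples. After treatment the order was kept except that Yap1 (15.3 ± 0.457 CPM per kb, SD, n = 2) stood above Tead2 (14.5 ± 0.0368). Wwtr1 remained the highest at 50.1 ± 0.738 CPM per kb (SD, n = 2) and Lats2 the lowest at 3.51 ± 0.707. In the treated samples Ankrd1 (16.2 ± 3.43 CPM per kb, SD, n = 2) overlapped both Yap1 and Tead2. Ccn2 and Ccn1, Ajuba and Amotl2, and Amotl2 and Tead1 also overlapped between treated samples.

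Genes upstream of YAP in the Hippo pathway were also mostly lower. Of 6 core kinase genes and their cofactors, 3 were lower and 0 higher at an unadjusted p under 0.05 in edgeR's quasi-likelihood test, beside 12.3% lower and 11.4% higher of all tested genes. Their median log2 fold change was -0.47, and -0.31 without saline replicate 2. For Lats1, the paralog of Lats2, the log2 fold change was -0.72 (standard error 0.19), and for Stk3, which encodes MST2, it was -0.66 (standard error 0.17). For Mob1b, a cofactor of LATS, it was -0.55 (standard error 0.19). In edgeR's quasi-likelihood test their adjusted p values were 0.114, 0.112 and 0.159, and DESeq2 called Lats1 and Stk3 lower. The 14 upstream regulators had a median of -0.60, with 9 lower and 0 higher at that p, beside the same 12.3% and 11.4%. The genes with the smallest p were Amotl1 (-0.96), an angiomotin like Amotl2, Frmd6 (-0.81), a FERM-domain activator of the pathway, and Map4k3 (-0.74), a kinase that can act beside MST. Their adjusted p values were 0.102, 0.106 and 0.112 in edgeR's quasi-likelihood test, and the exact test and DESeq2 both called Frmd6 and Amotl1 lower. DESeq2 also called Map4k3 (adjusted p = 0.0281) and Taok1 (adjusted p = 0.0472), another upstream kinase, lower. Of all genes tested, 3.68% were called lower in the exact test and 5.47% in DESeq2. With the length trend removed, the medians were -0.26 for the core kinases and -0.32 for the upstream regulators.

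Of 8 genes whose proteins restrain the kinases, which include subunits of the STRIPAK phosphatase complex and the LIM proteins Limd1 and Wtip, 3 were lower and 0 higher at an unadjusted p under 0.05 in edgeR's quasi-likelihood test, beside 12.3% and 11.4% of all tested genes. Their median log2 fold change was -0.12, and it was 0.0073 with the length trend removed and -0.26 without saline replicate 2. Strn (-0.61), Slmap (-0.49) and Strn4 (-0.48) had the smallest p, with adjusted p values from 0.124 to 0.178 in edgeR's quasi-likelihood test. Of the Vgll cofactors, which compete with YAP for TEAD, Vgll1 and Vgll2 had 0 counts in every sample. The groups overlapped for Vgll3, whose log2 fold change was -0.25 (standard error 0.31), and for Vgll4, where it was -0.15 (standard error 0.21). Their adjusted p values were 0.660 and 0.681 in edgeR's quasi-likelihood test.

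A further 17 genes known as YAP and TEAD targets went in both directions. The log2 fold change was below 0 for 13 of the 17, against 48.0% of all tested genes. In edgeR's quasi-likelihood test 7 were lower and 1 was higher at an unadjusted p under 0.05, beside 12.3% and 11.4% of all tested genes, and their median log2 fold change was -0.14. That median was -0.30 without saline replicate 2, -0.22 without ADC/cmLumiOpto replicate 1 and -0.24 without ADC/cmLumiOpto replicate 2. Igfbp3, which encodes a binding protein of insulin-like growth factors, was lower by a log2 fold change of -0.93 (standard error 0.18). For Myof, the gene of the membrane repair protein myoferlin, the value was -0.97 (standard error 0.20), and for Asap1, which encodes a regulator of ARF GTPases, -1.05 (standard error 0.22). Their adjusted p values were 0.101, 0.102 and 0.102 in edgeR's quasi-likelihood test. The exact test and DESeq2 each called these 3 genes, Arhgef17 and Tgfb2 lower, beside 3.68% and 5.47% of all genes tested. None of the 17 was called higher. The gene higher at an unadjusted p under 0.05 was F3, which encodes tissue factor, with a log2 difference of 0.68 (standard error 0.26 and adjusted p = 0.177 in edgeR's quasi-likelihood test). It is named after its value was seen.

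**Figure D5:**
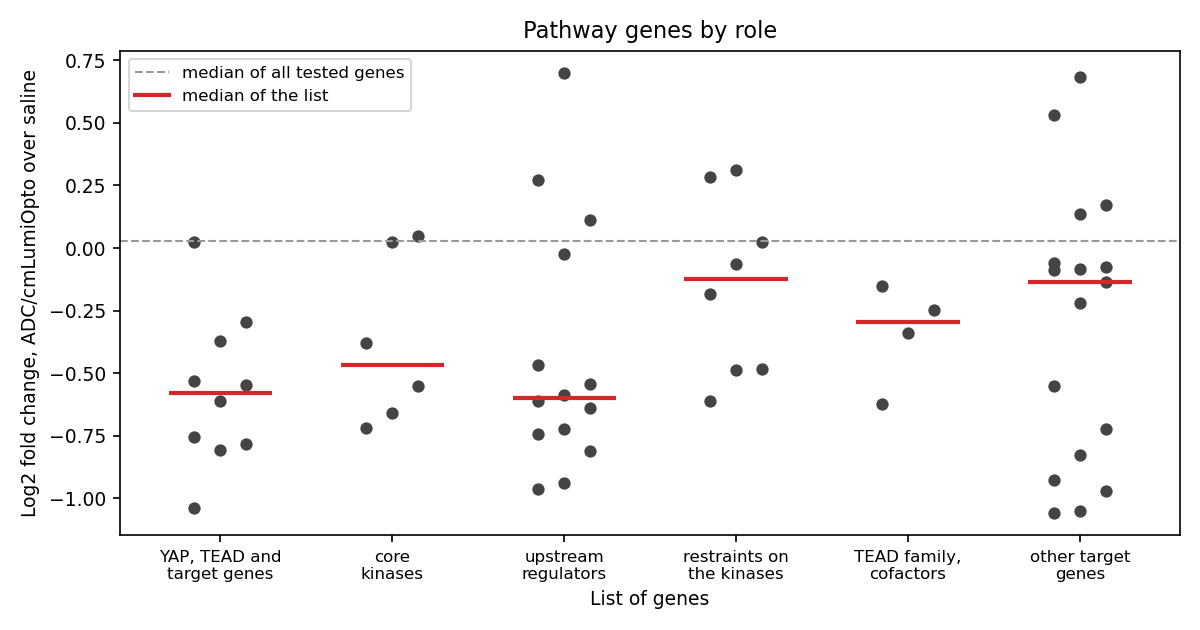
Log2 fold change of ADC/cmLumiOpto over saline (vertical axis) for the tested genes of each list (horizontal axis). Each point is a gene, red lines are medians of the lists and the dashed line is the median of all tested genes, 0.028. The upstream regulators, at -0.60, and the 10 YAP, TEAD and target genes, at -0.58, have the lowest medians.

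Summed markers of several cell types also differed between the groups, in both directions. The 6 fibroblast markers summed to 5071 and 3466 CPM in the saline samples and to 1722 and 1397 CPM after treatment, and all 6 were lower at an unadjusted p under 0.05 in edgeR's quasi-likelihood test, where 12.3% of all tested genes were lower and 11.4% higher. Proliferation markers summed to 1086 and 1067 CPM in saline and to 699 and 629 CPM after treatment, with 4 of 6 lower at that p. Smooth muscle and mural markers were at 249 and 287 CPM in saline and at 183 and 152 CPM after treatment, with 2 of 6 lower. Their log2 fold change was below 0 for 4 of the 6 and above 0 for Myh11 and Tagln, with separate groups for Myh11. Alveolar type 1 markers rose in sum, with 375 and 221 CPM in saline, 797 and 812 CPM after treatment and 5 of 6 higher. Alveolar type 2 markers summed to 1600 and 419 CPM in saline and to 5551 and 4677 CPM after treatment, also with 5 of 6 higher. Sftpc was the largest part of this sum in every sample. The remaining marker, Abca3, was lower, at 146 and 128 CPM in saline and at 113 and 121 CPM after treatment. Leukocyte markers were at 2130 and 1441 CPM in saline and at 4712 and 2962 CPM after treatment, with 2 of 6 higher. Lyz2 made up most of this sum, at 1687 and 1128 CPM in saline and at 4299 and 2447 CPM after treatment. For 3 of the 6, Cd3e, Csf1r and Itgam, the groups overlapped. Endothelial markers were at 474 and 368 CPM in saline and at 476 and 715 CPM after treatment, with 3 of 6 higher. The 6 epithelial and carcinoma markers were at 2638 and 3022 CPM in saline and at 2574 and 2475 CPM after treatment, with 1 of 6 lower. Krt8 and Krt18 made up most of this sum. The log2 fold change was below 0 for 4 of the 6 and above 0 for Epcam and Cdh1. Cdh1 was at 266 and 171 CPM in saline and at 283 and 277 CPM after treatment. Skeletal muscle markers stayed at or below 7.03 CPM in sum. No marker was at 0 in all samples. In these bulk samples fewer cells of a type and less RNA per cell cannot be told apart, and the part of these shifts in the values of the YAP and TEAD genes was not tested.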

How the data were processed

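RNA sequencing of 2 saline and 2 ADC/cmLumiOpto samples was analyzed. The methods give 4 samples per group, and 2 per group were analysed here. Groups and replicate numbers came from the sample titles. Where nothing says that samples came from separate mice, p values measure only the spread between these samples.

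The authors deposited counts, whole numbers of reads per gene without normalization. Reads were aligned with HISAT2. The methods name GRCm38, the submitters' processing notes mm39, and all 10 spans listed with the counts have the lengths but not the positions of GRCm38, so gene positions are given as listed and as mm39. The counting program and its strand setting are not given in the sources used here.

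The analysis used edgeR 4.0.16 in R 4.3.3: filterByExpr (minimum count 10, minimum total 15), TMM, estimateDisp, glmQLFit with legacy=FALSE (the default of the later edgeR version the methods name) and glmQLFTest, with Benjamini-Hochberg adjustment over all 15320 tested genes and a threshold of 0.05. Standard errors are the size of the log2 fold change divided by the square root of F. Depth is 15263375 to 19675436 counts per sample, where 3 counts, the floor, are 0.146 to 0.202 CPM (counting error alone). Alternatives were DESeq2 1.42.0, the edgeR exact test, the legacy fit, no TMM, RLE factors, no expression filter, a replicate block, removal of the trend on gene length (lowess span 0.3) and each sample left out. The procedure was also run on simulated data, in which the planted differences were larger than those of the members and all genes had the same dispersion. That run does not show how often differences of the members' size are found.

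Members and lists were chosen with earlier results of these data known. Named were all 10 members, the 3 genes of each list with the smallest p and the TEAD family. Genes named outside this rule include Taok1, Arhgef17 and Tgfb2, for their calls in other tests, F3, and markers of cardiac muscle and leukocytes. No set test was run. Other assays were not analysed here.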

Additional observations from a re-analysis of the deposited data

How the results depend on the processing

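No member had an adjusted p under 0.05 in edgeR's quasi-likelihood fit, and the count of called members was 4 with DESeq2 and with the exact test of edgeR and 3 with the replicate block (Tead1, Tead2 and Ankrd1). Called genes among all tested were 1332 with DESeq2 (9.63%), 1170 with the exact test (7.64%) and 728 with the replicate block (4.75%). The quasi-likelihood fit called 0, and 3641 genes had an unadjusted p under 0.05 there. The labels do not say that a replicate number marks a shared animal. The deviations of same-numbered samples from their group means correlated at 0.099 across genes, and the block changed no direction. The legacy fit, no TMM, RLE factors, no expression filter and removal of the length trend each called 0 genes, with between 3162 and 4010 at an unadjusted p under 0.05. Removal of the length trend moved the median log2 fold change to -0.26 for the core kinases and to -0.32 for the upstream regulators.

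With each sample left out in turn, in a fit that assumes the lone sample of a group to vary like the other group, called genes numbered 0 to 221 and called members 0. The 221 were called without saline replicate 1. The median log2 fold change of the members lay between -0.80 and -0.48. The direction turned for Ccn2 without saline replicate 2 (range -0.93 to 0.00061) and for Lats2 without saline replicate 1 (-0.0040) and without ADC/cmLumiOpto replicate 2 (range -0.21 to 0.21). The other 8 members stayed below 0 under all of the alternatives run. Each member had at least 361 counts in every sample, and the 2 samples per group limit the precision.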
